A study of Mus musculus with 3 samples.

Results

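Immediate early genes and heat shock genes were followed as a list of 31 gene symbols, found in each of the 18 count tables among 29298 genes in all. The list held 7 genes of the AP-1 transcription factors and their partners (Fos, Fosb, Jun, Junb, Jund, Atf3, Maff), 6 Egr and Nr4a transcription factors (Egr1, Egr2, Egr3, Nr4a1, Nr4a2, Nr4a3) and 3 Klf factors (Klf2, Klf4, Klf6). A further 10 were early-response regulators and feedback inhibitors (Ier2, Ier3, Ier5, Dusp1, Dusp2, Zfp36, Btg2, Nfkbia, Myc, Socs3), and 5 were heat shock chaperones (Hspa1a, Hspa1b, Hspa8, Hsp90aa1, Dnajb1). The question was which of these genes followed the cell class and which followed the library in which a cell was processed.

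Cells carrying CD45, the surface protein of leukocytes, were taken from infarcted mouse hearts after permanent ligation of a coronary artery. The mice were F7fl/fl CX3CR1Cre, in which Cre recombinase is made from the Cx3cr1 gene of monocytes and macrophages and F7 encodes coagulation factor VII, or F7fl/fl WT, so that both genotypes carried the floxed F7 allele. Hearts were taken at several times after infarction, digested with enzymes, freed of dead cells and positively selected with anti-CD45 beads before capture on the BD Rhapsody single-cell platform. The cells were pooled in 3 multiplexed libraries and separated again by 18 sample tags, with 7, 5 and 6 of them in libraries 1, 2 and 3. The tags mark biological replicates, per the labels. The genotype and the time point of each tag are not used here, so no comparison of genotype or time was made, and the tags served as the samples.

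After cells with fewer than 200 genes were removed, 25640 cells remained, and libraries 1, 2 and 3 held 15274, 4894 and 5472 of them. The tags held 10136595 to 62344127 molecules each. Library 1 was made with another bead version, another version of the authors' pipeline and intronic reads counted, and its deposited name carries a day label. These differences and the library itself cannot be told apart. The libraries shared at most 4 cell indices, between libraries 1 and 2. Of 46 pairs of tags within a library, 0 held identical values.

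The 6 classes were set by marker genes, the first match deciding: 1225 T cells (Cd3e, Cd3d and Cd3g, at least 2 molecules together), 779 B cells (Cd79a, at least 2 molecules), 488 neutrophils (S100a8 and S100a9 at 1% or more of molecules, with Csf3r), 15023 macrophages (the 3 C1q genes at 0.1% or more), 1371 dendritic cells (DC; Flt3) and 2427 monocytes (Ly6c2, at least 2 molecules). The other 4327 cells had no class. Of other markers, 6 of 6 for T cells, 5 of 5 for B cells, 6 of 6 for neutrophils and 7 of 7 for DC had their highest median level in their own class. For macrophages 5 of 6 did, and for monocytes 5 of 7 did, with Treml4 among those higher elsewhere. The T and B classes were not clean: 52.0% of T cells and 51.7% of B cells also passed another of the T, B, neutrophil and macrophage gates. Overlap with the DC and monocyte gates was not counted, and cells with that overlap alone were never left out. The level of 9 macrophage genes, relative to macrophages, had a median of 51.7% in T cells and 62.4% in B cells. Without the cells that passed 2 gates, these levels were 8.79% and 9.15%. Levels and differences of T and B cells are therefore also given without those cells where they moved by more than 1.5 times. Some sums of other classes were mixed too. Summed markers of natural killer cells reached 1034 CPM in monocyte sums (median 79.0 CPM), above the 417 CPM maximum in T cells. Those of fibroblasts reached 4274 CPM in DC sums (median 113 CPM) and 8200 CPM in T cell sums (median 261 CPM). Median depth was 20575 molecules per macrophage and 3997 per neutrophil.

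Immediate early genes are transcribed within minutes of a stimulus, without new protein synthesis. Growth factor, cytokine and stress signals reach them through mitogen-activated protein kinases and the serum response factor. Their products include transcription factors, such as Fos and Jun, and inhibitors that shut the same signals off, such as the phosphatase Dusp1. Heat shock genes are driven by another factor, Hsf1, when proteins unfold. Both sets are also known to be induced while tissue is being digested into single cells, which is why they are watched in heart leukocytes.

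The promoter sequences of 5 members are shown as examples of the motifs searched for: the Hsp70 pair, whose levels are described by library below, and 3 feedback genes. They were chosen for holding a match. RefSeq promoters (GRCm38.p6) were at hand for 25 of the 31 members, and the 250 bases before the start site are used here; Egr1, Egr3, Ier2, Myc, Hspa8 and Hsp90aa1 had none in the table. Hspa1a (chr17:34969190-34972156) and Hspa1b (chr17:34956436-34959238), each of 1 exon on the minus strand in GENCODE M21 for GRCm38, encode the inducible Hsp70, and their promoters are the same at 247 of 250 bases. Capitals mark a match to GAANNTTC, a pair of heat shock element units, 104 to 97 bases before the start in both. The Hspa1a sequence is chr17:34972157-34972406 and the Hspa1b sequence is chr17:34959239-34959488, both on the minus strand.
Hspa1a: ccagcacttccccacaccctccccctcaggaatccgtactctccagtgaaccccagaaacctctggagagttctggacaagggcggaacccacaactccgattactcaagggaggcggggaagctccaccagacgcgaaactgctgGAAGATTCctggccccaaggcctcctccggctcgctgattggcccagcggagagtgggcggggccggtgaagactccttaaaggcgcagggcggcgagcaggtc
Hspa1b: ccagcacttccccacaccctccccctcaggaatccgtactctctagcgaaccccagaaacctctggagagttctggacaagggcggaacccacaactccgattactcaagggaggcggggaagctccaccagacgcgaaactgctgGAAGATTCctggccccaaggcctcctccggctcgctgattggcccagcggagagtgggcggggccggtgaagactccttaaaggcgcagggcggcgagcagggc
GAANNTTC, which reads the same on both strands, was found in 6.69% of all 32851 RefSeq promoters of this length and in 3 members with a promoter, Hspa1a, Hspa1b and Jun. The longer form GAANNTTCNNGAA was in 0.466% of all promoters and in no member.

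Capitals in the promoters of Dusp1 and Btg2 mark the cAMP response element TGACGTCA, and in that of Zfp36 a CArG box, the site of the serum response factor, at 58 to 49 bases before the start. The Dusp1 sequence is chr17:26508473-26508722, the Btg2 sequence chr1:134079156-134079405 and the Zfp36 sequence chr7:28379229-28379478, all on the minus strand.
Dusp1: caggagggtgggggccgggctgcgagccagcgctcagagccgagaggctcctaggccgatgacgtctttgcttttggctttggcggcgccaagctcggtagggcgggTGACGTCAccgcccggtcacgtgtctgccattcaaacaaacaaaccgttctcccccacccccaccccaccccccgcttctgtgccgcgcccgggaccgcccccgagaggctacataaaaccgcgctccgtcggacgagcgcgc
Btg2: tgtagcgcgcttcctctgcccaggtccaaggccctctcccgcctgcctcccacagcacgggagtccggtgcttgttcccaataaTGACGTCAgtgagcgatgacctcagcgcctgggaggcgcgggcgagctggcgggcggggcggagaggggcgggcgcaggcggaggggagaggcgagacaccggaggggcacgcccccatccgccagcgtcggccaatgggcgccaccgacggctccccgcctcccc
Zfp36: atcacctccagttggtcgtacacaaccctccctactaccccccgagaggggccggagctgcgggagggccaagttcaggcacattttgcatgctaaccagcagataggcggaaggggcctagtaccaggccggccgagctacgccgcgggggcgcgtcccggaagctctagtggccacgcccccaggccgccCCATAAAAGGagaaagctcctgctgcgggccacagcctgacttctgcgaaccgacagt
TGACGTCA was in 1.55% of all promoters and in 3 members (Dusp1, Btg2 and Maff), the CArG box in 1.47% and in 2 members (Zfp36 and Egr2), and the AP-1 site TGANTCA in 6.75% and in no member, all searched on both strands. The other 5 of the 8 feedback genes with a promoter, Ier3, Ier5, Dusp2, Nfkbia and Socs3, held none of these motifs. A match is a description of the letters only, and the CArG box known upstream of Fos lies outside this window.

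In macrophages, every tag of library 1 lay below every tag of libraries 2 and 3 for 6 members: the heat shock genes Hspa1a, Hspa1b, Hspa8 and Dnajb1 and the AP-1 genes Junb and Jund. The fifth heat shock gene, Hsp90aa1, overlapped. Over all 7881 genes with a mean of at least 10 counts per 1000000 molecules (CPM), 11.2% lay below in this way and 22.2% lay above; among the 30 members that passed the same mean, 6 lay below and 0 above, and 33.4% of all genes lay apart in either direction. With 3 libraries no test of a library difference was made, and these are descriptions.

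Hspa1a, the stress-induced Hsp70, was at 60.8 CPM in the lowest, 127 CPM in the median and 189 CPM in the highest of the 7 macrophage sums of library 1. In library 2 the 5 tags were at 422, 463, 353, 379 and 1243 CPM, and in library 3 the 6 tags ran from 309 CPM through a median of 588 CPM to 1007 CPM (tag 9). No tag of library 1 reached the lowest tag of the other libraries, and the median of the 11 tags was 3.46-fold that of library 1 after adding 10 CPM. The copy Hspa1b ran from 42.4 to 176 CPM in library 1 and from 239 to 1419 CPM in the other 2, with medians that stood 4.30-fold apart. Because the 2 genes are near-identical copies, how the authors' counting split their reads is uncertain, and they are best read as a pair. The same tag was highest for both in each of libraries 2 and 3, tag 5 and tag 9. These tags also held the fewest cells (713 and 695) and the fewest molecules of their libraries. Whether yield bears on the levels was not tested.

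**Figure D1:**
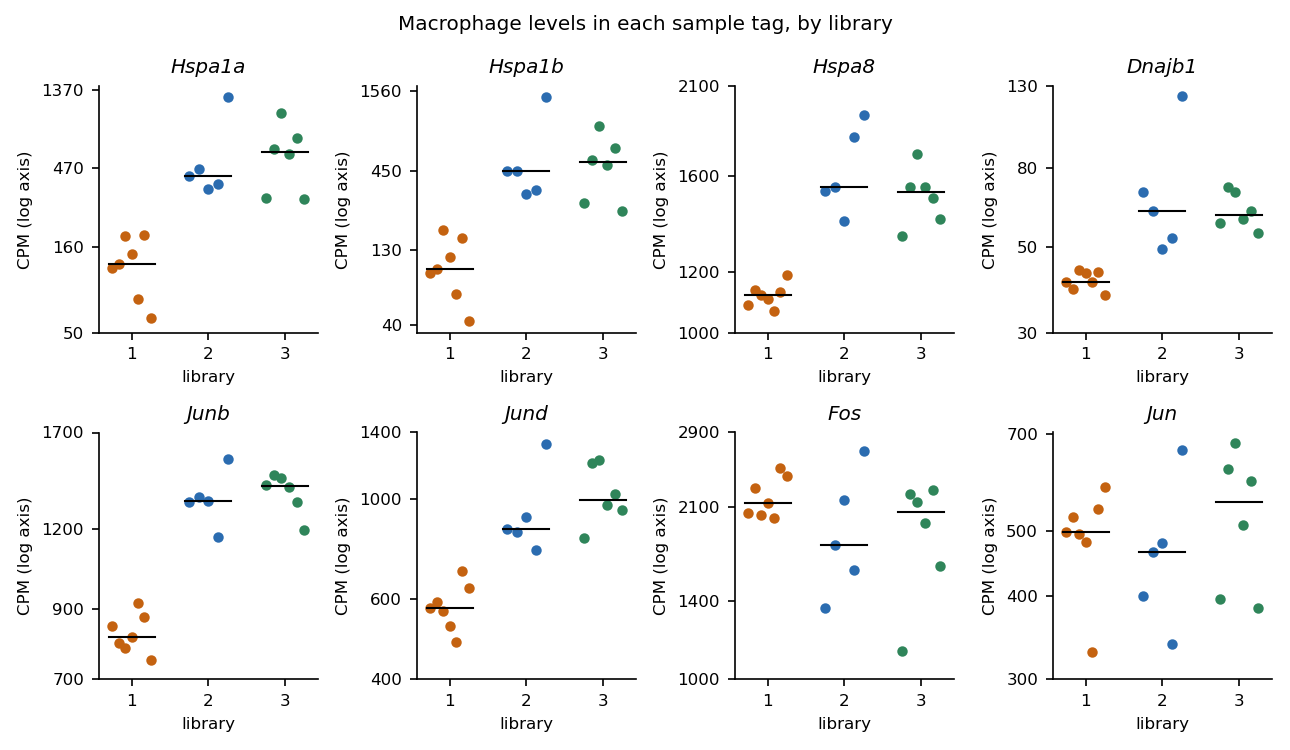
Levels of 8 genes in macrophages, in CPM on a log axis, with 1 point for each sample tag (7, 5 and 6 in libraries 1, 2 and 3) and a line at each library's median. Hspa1a, Hspa1b, Hspa8, Dnajb1, Junb and Jund have every library 1 point below all others, while the points of Fos and Jun overlap.

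Hspa8, the constitutive Hsp70 of unstressed cells, showed the same order with a smaller gap: 1067 to 1189.9 CPM in library 1 and 1336 to 1925 CPM in libraries 2 and 3, with medians 1.38-fold apart. Dnajb1, the Hsp40 partner of Hsp70, ran from 37.5 to 43.5 CPM in library 1 and from 49.2 to 122 CPM in the others. Hsp90aa1, the stress-inducible Hsp90, overlapped between libraries, at 614 to 746 CPM against 555 to 1151 CPM. The inducible pair thus showed a wider gap than the other 3 genes.

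Between libraries 2 and 3, 0 of 30 members had macrophage tags that did not overlap, against 2.84% of all genes. At a background that low, the count of 0 says nothing about the members.

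In T and B cells, too, every library 1 tag lay below the others in Hspa1a, but only as long as cells that passed 2 gates were kept. The share of such cells also followed library. It was 29.3, 61.8 and 59.5% of T cells and 35.0, 57.7 and 60.3% of B cells in libraries 1, 2 and 3. With those cells kept, the Hspa1a gap cannot be told apart from this difference in share. In T cells the highest library 1 tag was at 160.0 CPM and the lowest of the others at 239.0 CPM. The Hspa1a medians there were 90.6 CPM in library 1 and 543 CPM in libraries 2 and 3. B cells were at 56.7 CPM and 362 CPM, again without overlap, though the nearest tags were at 181 and 183 CPM. DC medians were 223 and 469 CPM, and the ranges overlapped. Of all genes, 3.77% lay below and 7.01% above in library 1 in T cells, 2.19% below and 3.99% above in B cells, and 2.93% below and 8.42% above in DC. Of the 31 members 3, 2 and 2 lay below, and 1 lay above, Ier2 in T cells. Hspa8 was among them in all 3 classes, Jund in T cells and DC, and Hspa1a in T and B cells. With the cells of 2 gates left out, these 3 genes overlapped in T and B cells, while Ier2 still lay above in T cells. Hspa8 then reached 1643 CPM in library 1 T cells, where the lowest of the other tags was at 1560.02 CPM, and 1100.5 CPM in library 1 B cells, where the lowest was at 1098 CPM. Jund reached 1098 CPM in library 1 T cells and the lowest of the other tags was at 1007 CPM. The Hspa1a medians of T cells were 112 CPM (5 tags) and 265 CPM (9 tags), and the ranges overlapped, from 3.67 to 148 CPM against 88.9 to 667 CPM. Those of B cells were 87.7 CPM (4 tags) and 330.3 CPM (6 tags), also with overlap.

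**Figure D2:**
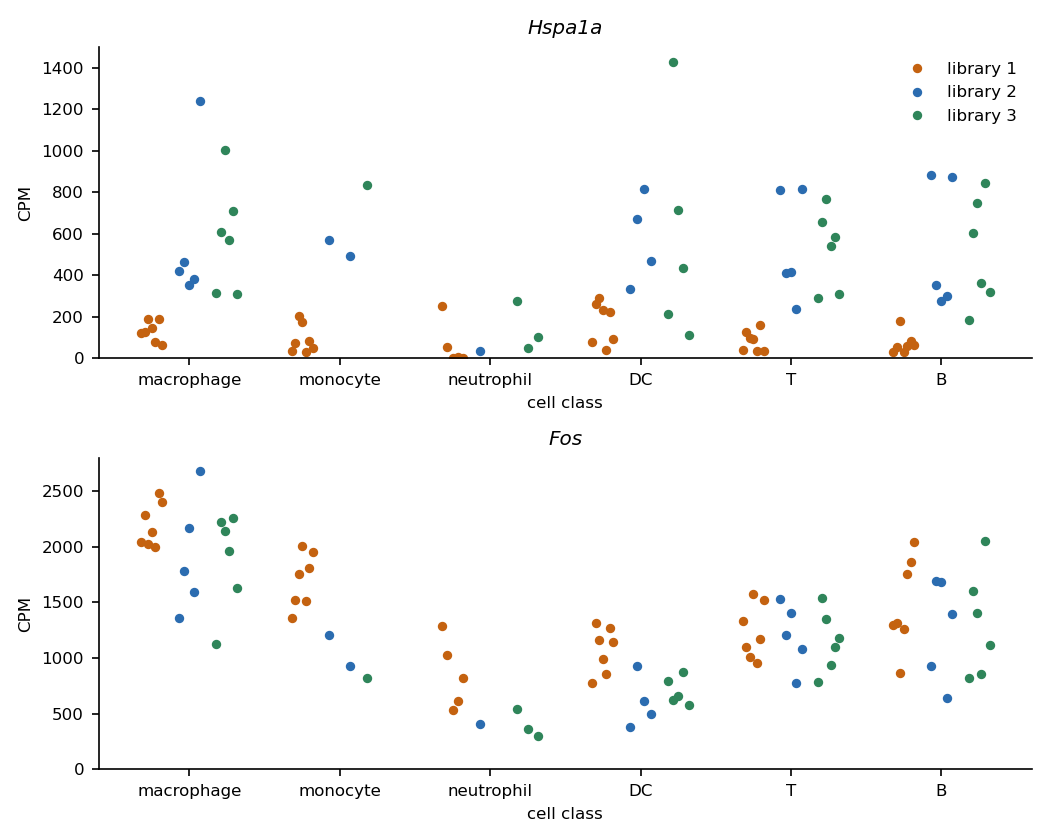
Hspa1a (top) and Fos (bottom) in CPM for each sample tag with at least 20 cells, by cell class along the x axis and library by colour. The Hspa1a medians of library 1 are the lowest of the 3 libraries in every class, and the Fos medians are highest in macrophages in all 3 libraries.

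The same count was not made for monocytes and neutrophils, which had few sums outside library 1. In the 7 monocyte sums of library 1, Hspa1a ran from 30.6 through 70.9 to 203 CPM, and the 3 sums of the other libraries were at 571, 492 and 836 CPM. Neutrophils had the lowest Hspa1a of the 6 classes, with 250.3, 53.1, 0, 4.28 and 0 CPM in library 1, 34.8 CPM in the 1 sum of library 2 and 276, 48.8 and 104 CPM in library 3. In each library the neutrophil median was below that of the other 5 classes. Among the members, every library 1 neutrophil sum lay above all others in Egr1, Nr4a3, Ier2 and Btg2. For Jund, Klf2 and Klf6 every library 1 neutrophil sum lay below all others. The share of all genes that lay apart in neutrophils was not counted, so these are descriptions.

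Both the share of cells that held the transcript and the amount per cell lay lower in library 1. Macrophages were thinned to 2000 molecules each, leaving out 157 shallower cells. Then 14.2% of library 1 macrophages (95% Clopper-Pearson interval 13.4 to 14.9, 8373 cells) held an Hspa1a molecule, against 34.8% (33.1 to 36.5, 3174 cells) in library 2 and 35.4% (33.7 to 37.0, 3319 cells) in library 3; the intervals cover counting error only. Cells with the molecule held a mean of 2.41, 4.67 and 4.52 of them. Unthinned, the shares were 39.6%, 68.0% and 64.8% at median depths of 24436, 16585 and 16065 molecules. In neutrophils, the class with the lowest level, the thinned shares were 2.43% (6 of 247 cells), 7.69% (5 of 65) and 11.6% (20 of 173), at unthinned median depths of 4435, 3418 and 3221 molecules. Macrophage shares were above the neutrophil shares in each library. These shares and their intervals pool the cells of a library, so they do not measure the spread between tags.

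Other measures that moved with library 1 were recorded beside the heat shock values. Library 1 counted intronic reads, which adds molecules to genes with introns only. Among protein-coding genes, 33.9% of 112 genes with 1 exon lay below in library 1 macrophages and 10.8% of 7673 genes with 2 or more exons did, with median log2 differences of -0.09 and 0.09. Hspa1a, Hspa1b, Junb and Jund have 1 exon, and so do Jun, Ier2 and Ier5, while Hspa8 has 9 and Dnajb1 has 3. The log2 differences of Hspa1b (-2.11) and Hspa1a (-1.79) took ranks 6 and 11 from the lowest of the 112, those of Junb (-0.72) and Jund (-0.71) took ranks 26 and 27, and Jun (0.06) and Ier2 (0.16) stood at ranks 75 and 92. The mitochondrial share of macrophage molecules, a measure of RNA quality, was 4.51 to 5.26% over the tags of library 1, 4.99 to 6.15% over those of library 2 and 4.72 to 5.86% over those of library 3. The total behind this share includes intronic reads in library 1 only, so the libraries are not alike in this measure. The part of intronic counting or RNA quality in the heat shock difference was not tested.

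Of 29 other heat shock genes and chaperones, 28 passed the mean; 7 lay above in library 1 macrophages and 2 below, shares near those of all genes (22.2% and 11.2%). Those above were Hsp90ab1, Hsp90b1, Hspa5, Hspa4, Hspa14, Dnajb11 and Ptges3, of which Hspa5 and Hsp90b1 are chaperones of the endoplasmic reticulum. Among those below was Ubb, a polyubiquitin gene, with a median of 1052 CPM in library 1 against 1860.3 CPM. Of 33 other immediate early genes, 0 lay above and 4 below, again near the share of all genes that lay below. The 4 were Gadd45b, Mafk, Irf1 and Srf, with Gadd45b at 88.7 to 104 CPM against 176 to 302 CPM. Of 20 kinase and repressor inputs, 3 lay above and 3 below. The genes of these lists are named here because their groups did not overlap, after their values were seen.

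Of the 7 AP-1 genes, 2 (28.6%) lay apart by library in macrophages, both below. Of all genes 11.2% lay below and 33.4% apart in either direction, so the count is not read as a trait of AP-1. The 2 were Junb and Jund, Jun-family partners of Fos with 1 exon each. Junb ran from 749 to 920.5 CPM in library 1 and from 1167 to 1546 CPM in the others. Jund ran from 483 to 691 CPM and from 772 to 1317 CPM. Fos, Fosb and Jun, the classic inducible AP-1 subunits, overlapped between libraries. Fos ran from 2003 through 2138 to 2488 CPM in library 1 and from 1128 through 1964 to 2681 CPM in libraries 2 and 3. Jun had medians of 499 and 479.8 CPM. Tag 5 of library 2, the tag with the highest Hspa1a, also had the highest Fos of the 18 tags, at 2681 CPM, and the highest Atf3, at 763 CPM, while its Junb was 1546 CPM. Tag 7 of library 3 had the lowest Fos, at 1128 CPM, with Hspa1a at 316 CPM.

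Fos (chr12:85473890-85477273, plus strand, 4 exons) was highest in macrophages among the 6 classes. Its median was 2093 CPM over 18 macrophage tags, 1519 CPM in monocytes (10 tags), 1353 CPM in B cells, 1175 CPM in T cells (18 each), 824 CPM in DC (16) and 544 CPM in neutrophils (9). Macrophages and monocytes overlapped in range, from 1128 to 2681 CPM and from 824 to 2005 CPM, as did all neighbours in this order. When cells that passed 2 gates were left out, B cells were at 578 CPM (10 tags) and T cells at 531 CPM (14 tags), below DC at 824 CPM. Classes were tested within tags with edgeR's quasi-likelihood test, adjusted by Benjamini and Hochberg over all genes, and only tags with 20 cells of both classes entered. Against DC, whose range did not overlap in the same tags, Fos was higher in macrophages of 16 of 16 tags by 1.39 ± 0.08 (SE) on the log2 scale (adjusted p = 7.6e-13). Within libraries 1, 2 and 3 alone, the difference was 1.11, 1.54 and 1.59.

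In the comparison of macrophages with DC, 16 of 31 members (51.6%) were higher in macrophages and 12 (38.7%) lower, against 35.4% and 28.4% of all 10916 genes. Higher AP-1 genes were Fos, Fosb, Jun, Junb and Atf3, with Jun at 497 against 289 CPM (log2 difference 0.89 ± 0.10, higher in 16 of 16 tags) and Atf3, a stress-induced partner of Jun, at 439.7 against 233 CPM (0.94 ± 0.11). Jund and Maff, a small Maf protein without an activation domain, were lower, by 0.15 and 0.29 on the log2 scale. All 7 AP-1 genes passed the test. Jund kept its direction but was not called in library 1, 2 or 3 alone (edgeR adjusted p = 0.053, 0.11 and 0.25). The Fosb call (0.23) was lost without library 1 (0.13, edgeR adjusted p = 0.37) and without library 3 (0.17, adjusted p = 0.15), and the Maff call without library 1 (-0.35, adjusted p = 0.058).

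Macrophages and monocytes were closer. Of 31 members, 10 (32.3%) were higher and 13 (41.9%) lower in macrophages, against 32.0% and 31.4% of 11223 genes over 10 tags, 7 of them in library 1. Fos (0.37 ± 0.08), Fosb (0.67 ± 0.07), Jun (0.52 ± 0.08) and Atf3 (0.34 ± 0.08) were each higher in macrophages of 10 of 10 tags. Jund (-0.26 ± 0.05) and Maff (-0.51 ± 0.12) were lower again. Without library 1, 3 tags remained, 3 members were higher and 5 lower, and the Maff difference was 0.13 (edgeR adjusted p = 0.83). Jun, Jund and Atf3 kept their direction there, at 0.38, -0.22 and 0.29, but were not called (edgeR adjusted p = 0.24, 0.46 and 0.41). With cells thinned to equal depth before summing, the lower members were 8.

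Against neutrophils, macrophages had higher Fos (1.60 ± 0.18, 9 of 9 tags), Fosb (0.79 ± 0.16) and Atf3 (0.66 ± 0.16). Neutrophils had higher Jund (1257 against 637 CPM), Maff (-1.07 ± 0.23) and Junb (-0.38 ± 0.14), and Jun was not separated (0.07 ± 0.18, adjusted p = 0.76). Without library 1, 4 tags remained and 3 of these calls were lost: Maff was at -0.17, Junb at -0.10 and Atf3 at 0.63 (edgeR adjusted p = 0.71, 0.79 and 0.059). Junb was also not called with DESeq2 size factors (-0.22, adjusted p = 0.16). In this comparison 9 members (29.0%) were higher in macrophages and 15 (48.4%) lower, against 39.9% and 19.8% of 10394 genes. The median log2 difference of all genes was 0.58, and 0.74 with DESeq2 size factors, so that a member at 0 lies below the median gene.

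**Figure D3:**
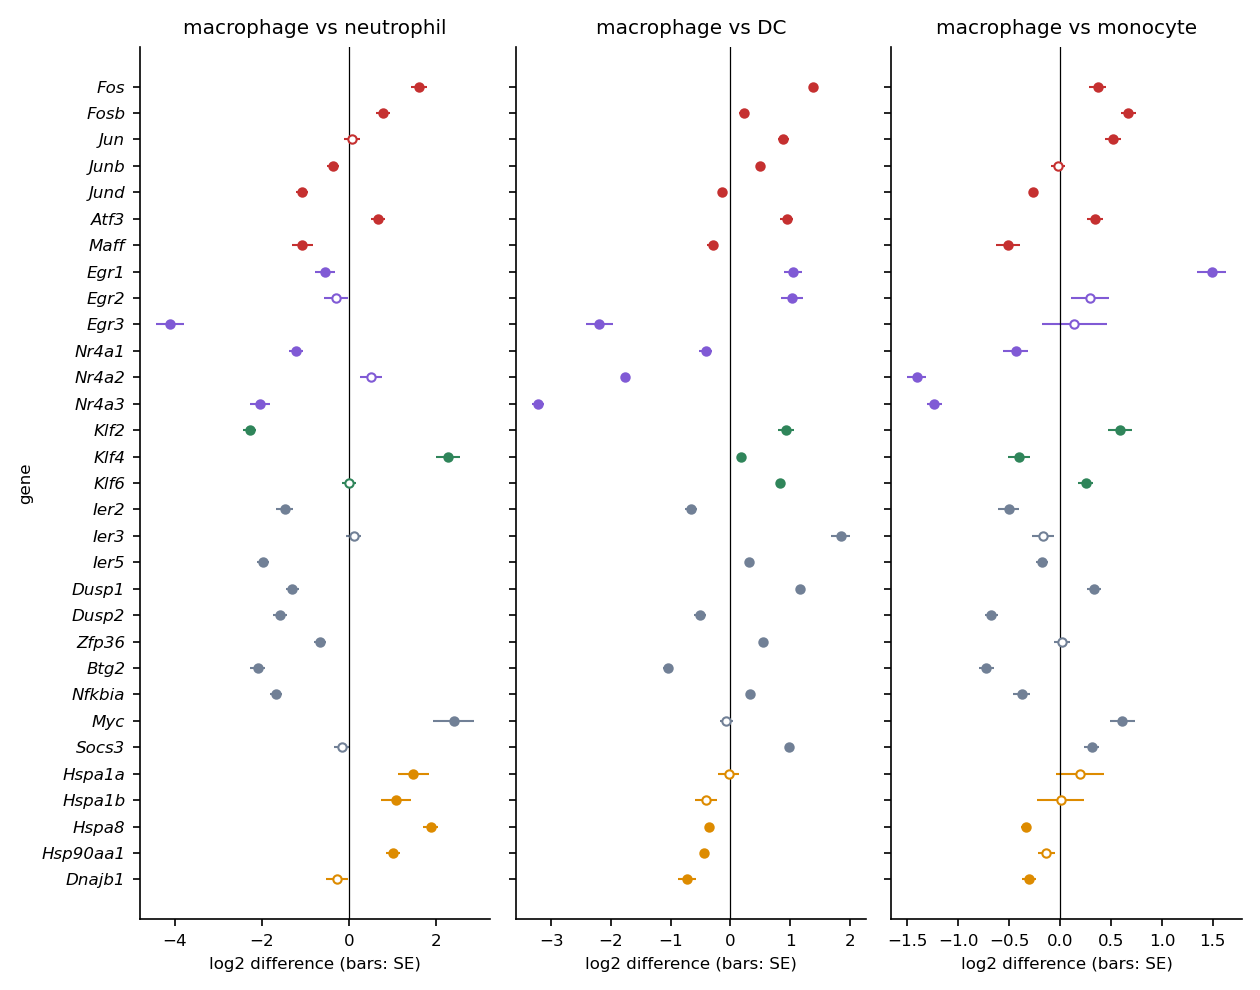
Log2 differences of the 31 members between macrophages and neutrophils (9 tags), DC (16 tags) and monocytes (10 tags), from edgeR with tags as blocks; bars are standard errors, filled points have an adjusted p under 0.05, and colours follow the group (red AP-1, purple Egr and Nr4a, green Klf, grey feedback regulators, orange heat shock). Egr3 lies farthest to the left in the neutrophil panel and Nr4a3 in the DC panel, and Myc, Klf4 and Hspa8 lie farthest to the right in the neutrophil panel.

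T and B cells had lower Fos than macrophages, by 0.83 ± 0.08 and 0.65 ± 0.08. Without cells that passed 2 gates the differences were 2.19 ± 0.18 (14 tags) and 1.77 ± 0.17 (10 tags), so the size depended on those cells and the direction did not. Atf3 moved in the same way, from 0.89 to 2.63 against T cells and from 0.60 to 1.83 against B cells. Against T cells 17 members (54.8%) were higher in macrophages and 12 (38.7%) lower (all 10889 genes: 33.8% and 31.9%), and against B cells 14 (45.2%) and 12 (38.7%; all 10626 genes: 25.8% and 23.6%). With the 2-gate cells left out, both counts stayed within 1.5 times.

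Of the Egr and Nr4a genes, Nr4a3 and Egr3 had the widest class differences. Nr4a3, an orphan nuclear receptor of the Nur77 family, was highest in DC: its median was 1073 CPM there (452 to 1278 CPM, 16 tags) and 96.3 CPM in macrophages (56.6 to 193 CPM, 18 tags). The 2 ranges did not overlap, and the fit gave -3.22 ± 0.11 on the log2 scale for macrophages against DC (lower in 16 of 16 tags, adjusted p = 8.1e-17). The difference was -3.49, -3.29 and -2.87 within the 3 libraries. Monocytes stood at 196 CPM, neutrophils at 375 CPM, T cells at 342 CPM and B cells at 237 CPM, and these 4 overlapped. Without cells that passed 2 gates, T cells were at 581 CPM (363 to 792 CPM) and B cells at 454 CPM (314 to 857 CPM), and both overlapped with DC. Nr4a2, a second member of the family, followed, with 291 CPM in DC, 217 CPM in monocytes and 83.6 CPM in macrophages; macrophages were lower than DC by 1.76 ± 0.08 and lower than monocytes by 1.41 ± 0.09, in every tag tested. Nr4a1, known as Nur77, was highest in neutrophils (908 CPM) and B cells (730 CPM) and lowest in macrophages (432 CPM). Without cells that passed 2 gates, B cells (963 CPM, 10 tags) stood above neutrophils (918 CPM, 8 tags).

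Egr3 was near the floor in macrophages and monocytes. Macrophage sums ran from 2.63 to 10.6 CPM and monocyte sums from 0 to 6.99 CPM, while neutrophils ran from 25.1 through 78.9 to 175 CPM and B cells from 13.96 through 85.2 to 185 CPM. Neither of the latter overlapped with macrophages, and the fitted differences were -4.11 ± 0.33 for macrophages against neutrophils and -3.99 ± 0.19 against B cells (-4.80 ± 0.25 without cells that passed 2 gates). Egr3 is known to be induced by antigen receptor signals in lymphocytes. T cells were at 20.9 CPM, lower than B cells by 1.96 ± 0.19 (18 of 18 tags). Without cells that passed 2 gates, the T cell median was 7.59 CPM, the B cell median 162 CPM and the difference 4.22 ± 0.24, and the macrophage to T cell difference moved from -1.99 to -0.71 (adjusted p = 0.018). In the comparison of neutrophils with monocytes, Egr3 did not pass the filter on low counts, so no difference was fitted. In the tags shared by these classes, it ran from 25.1 to 175 CPM in neutrophils and from 0 to 6.99 CPM in monocytes.

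Egr1, the zinc finger factor most often used as a readout of early activation, had a median of 686 CPM in neutrophils, 459 CPM in B cells, 380.0 CPM in macrophages, 317 CPM in T cells and 126 CPM in monocytes. T cells were at 156 CPM and B cells at 329 CPM when cells that passed 2 gates were left out. Macrophages exceeded monocytes in 10 of 10 tags by 1.49 ± 0.14 (adjusted p = 4.2e-07), and neutrophils exceeded monocytes in 6 of 6 tags by 2.77 ± 0.29. Its place between macrophages and neutrophils depended on library: the difference was -0.55 ± 0.22 over 9 tags (adjusted p = 0.034), 0.42 in library 3 alone and 0.49 without library 1, neither called. Egr2, a near relative, was higher in macrophages than in DC (1.03 ± 0.18) and T cells (1.09 ± 0.13, and 2.17 ± 0.32 without cells that passed 2 gates).

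Among the 3 Klf genes, Klf2 and Klf4 had opposite orders in neutrophils and monocytes. Klf2, a factor of quiescent lymphocytes and endothelium, was highest in neutrophils: 377 through 512 to 1045 CPM over 9 tags against 78.5 through 129 to 350.3 CPM over 18 macrophage tags. In the 9 shared tags the classes did not overlap, and neutrophils exceeded macrophages by 2.28 ± 0.15 (adjusted p = 2.8e-15) and monocytes by 3.14 ± 0.19 (6 of 6 tags). Klf4, a factor needed for monocyte differentiation, had the reverse order: 688 CPM in monocytes, 508 CPM in macrophages and 75.9 CPM in neutrophils. Macrophages exceeded neutrophils by 2.27 ± 0.27 and were below monocytes by 0.41 ± 0.11; with library 1 left out, the latter difference was -0.09 and was not called (edgeR adjusted p = 0.87). Klf6 was at 1095 CPM in macrophages and lowest in DC, at 654 CPM (macrophages higher by 0.83 ± 0.06 in 16 of 16 tags), and it was not separated between macrophages and neutrophils.

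Most feedback genes were highest in neutrophils. Of the 31 members, 14 (45.2%) had their highest class median in neutrophils, against 20.005% of 8198 genes with a mean of 10 CPM or more, and 8 of the 14 were among the 10 early-response regulators. With the cells of 2 gates left out, these were 11 members (35.5%), 6 of them regulators, against 18.4% of 8282 genes. Some were near ties: Socs3 stood at 205 CPM in neutrophils and 198 CPM in macrophages, and Egr2 at 39.8 and 39.7 CPM. Nfkbia, the inhibitor of NF-kappaB, stood at 3414 through 4160 to 5749 CPM in neutrophils, 1696 CPM in monocytes and 1270.6 CPM in macrophages, whose highest tag was at 2040 CPM. All 9 neutrophil sums were above every sum of the other 5 classes, and the difference from macrophages was 1.67 ± 0.14 on the log2 scale (adjusted p = 5.8e-12). Ier5, an early-response protein tied to heat shock factor signalling, was the second gene with this separation, at 896 to 2079 CPM against a highest value of 497 CPM in macrophages. Neutrophils also exceeded macrophages in Btg2, an antiproliferative factor (2.10 ± 0.18), Dusp2 (1.58 ± 0.16), Ier2 (1.48 ± 0.19), Dusp1 (1.31 ± 0.15) and Zfp36, which destabilises cytokine mRNA (0.66 ± 0.13). Each of these 7 genes was higher in neutrophils of 9 of 9 tags. Without library 1 the Zfp36 difference, macrophages minus neutrophils, was -0.53 and was not called (edgeR adjusted p = 0.13). Myc ran the other way, at 0 CPM in the median neutrophil sum and 32.6 CPM in macrophages of the same tags (2.40 ± 0.48).

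Against monocytes, the cells closest to neutrophils in origin, neutrophils were higher in 17 of 29 tested members (58.6%) and lower in 5 (17.2%), while 27.5% of 4922 genes were higher and 29.4% lower. Of the 9 regulators tested, 8 were higher, led by Ier5 (2.02 ± 0.15), Dusp1 (1.89 ± 0.19) and Btg2 (1.79 ± 0.19), and Ier3 was not separated. The comparison rests on 6 tags, 5 of them in library 1. A list of 39 other immediate early genes had the same lean: of 32 tested, 23 (71.9%) were higher in neutrophils and 4 lower, with Gadd45a at 395 against 34.6 CPM. Of 18 tested kinase and repressor inputs, 6 were higher and 3 lower.

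**Figure D4:**
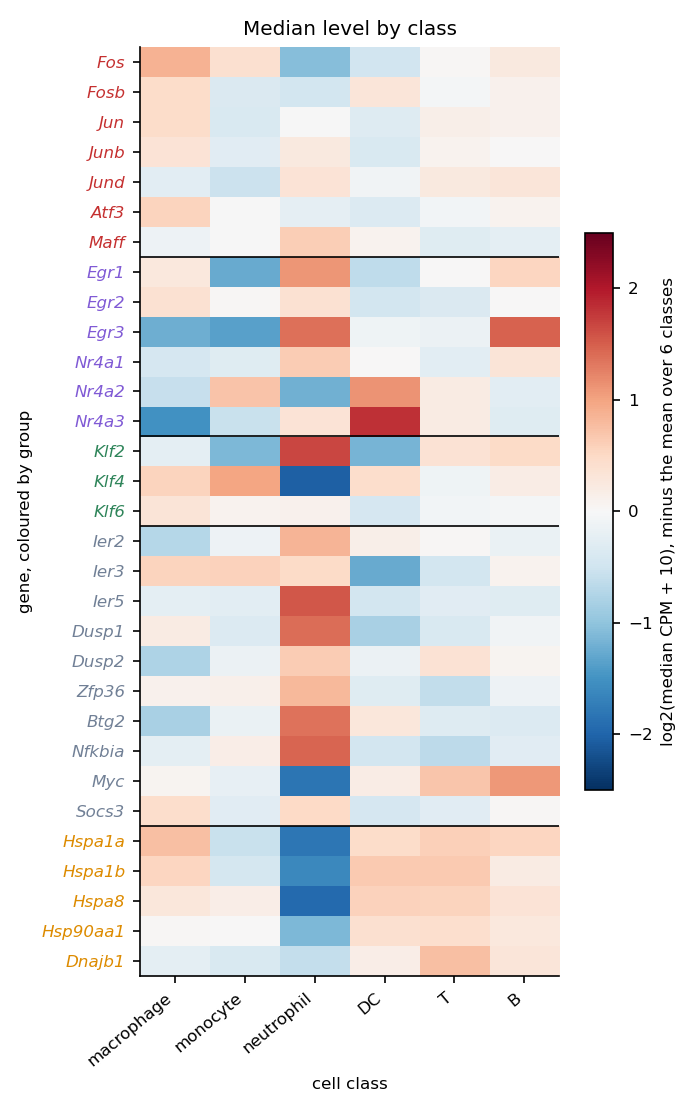
Median level of the 31 members in the 6 classes, as log2(median CPM + 10) minus the mean over the classes, with genes in rows by group and classes in columns. Neutrophils are red for most regulators and for Klf2 and blue for Klf4, Myc and all 5 heat shock genes.

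Macrophages and DC differed in the regulators too. Ier3, an early gene that modulates survival signals, was at 348 against 92.1 CPM (1.85 ± 0.16, 16 of 16 tags), Dusp1 at 772 against 377 CPM (1.16 ± 0.06) and Socs3, the feedback inhibitor of cytokine receptors, at 196 against 105 CPM (0.98 ± 0.07). Btg2 ran the other way, with 168 against 371 CPM (-1.04 ± 0.09). Between T and B cells 5 members were higher in T cells and 8 in B cells (15.1% and 15.3% of 7988 genes), and these calls moved with the cells and libraries used: 3 and 8 passed without cells that passed 2 gates. Myc, the growth regulator, was higher in B cells, at 64.4 against 47.0 CPM (log2 difference of T minus B cells -0.61 ± 0.14, and -1.18 ± 0.29 without cells that passed 2 gates).

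As for class, all 5 heat shock genes had their lowest median in neutrophils, and 4 of the 5 passed the test against macrophages. Macrophages exceeded neutrophils in Hspa8 (1189.9 against 291 CPM, 1.87 ± 0.18, ranges apart), Hspa1a (1.47 ± 0.36), Hspa1b (1.08 ± 0.33) and Hsp90aa1 (1.01 ± 0.16), and Dnajb1 was not separated. Without cells that passed 2 gates, the Hspa1a and Hspa1b differences were 2.70 ± 0.34 and 2.27 ± 0.30. Without the tag as a block they were 1.29 and 0.96 and were not called (edgeR adjusted p = 0.066 and 0.17). Of 28 other heat shock genes tested, 19 (67.9%) were higher in macrophages than in neutrophils and 5 lower, where 39.9% of all genes were higher. Against monocytes and DC, neither Hspa1a (0.20 ± 0.24 and -0.03 ± 0.18) nor Hspa1b (0.01 ± 0.23 and -0.40 ± 0.18) was called. Dnajb1 was lower in macrophages than in T cells by 1.04 ± 0.07 in 18 of 18 tags, at 53.3 against 115 CPM, and Hsp90aa1 by 0.42 ± 0.07. T cells with cells of 2 gates left out differed from macrophages by 1.07 ± 0.18 in Hspa1a, against 0.37 ± 0.12 with them; the latter was 0.13 without library 1 and was not called (edgeR adjusted p = 0.31).

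The split between class and library was summarised for each gene as the share of variance of log2(CPM + 10) over 89 sums of 1 tag and 1 class, with class and library fitted together. The T and B sums kept the cells that also passed another gate, which were a smaller share of those classes in library 1. Class and library shares may therefore both depend on these cells, and no shares without these cells are given. Class took a median of 68.2% for the Egr and Nr4a genes, 64.4% for Klf, 63.4% for the regulators, 31.5% for AP-1 and 27.4% for heat shock. Library took 1.33%, 5.46%, 4.77%, 9.63% and 27.4%. Over 8198 genes with a mean of 10 CPM or more, the medians were 45.5% and 6.48%, and the library share was above the class share in 15.6% of them; this was so for 5 of the 31 members (16.1%). The 5 were Hspa1a (47.2% by library, 15.7% by class), Hspa1b (43.4% and 12.8%), Jund (47.5% and 29.0%), Junb (46.8% and 26.5%) and Dnajb1 (27.4% for both). Ier2 and Socs3 came next, with 25.4% and 24.98% by library. Ier5 had the highest class share, 82.9%. These library shares rest on library 1: without it, the median library share of the heat shock genes was 0.436%.

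**Figure D5:**
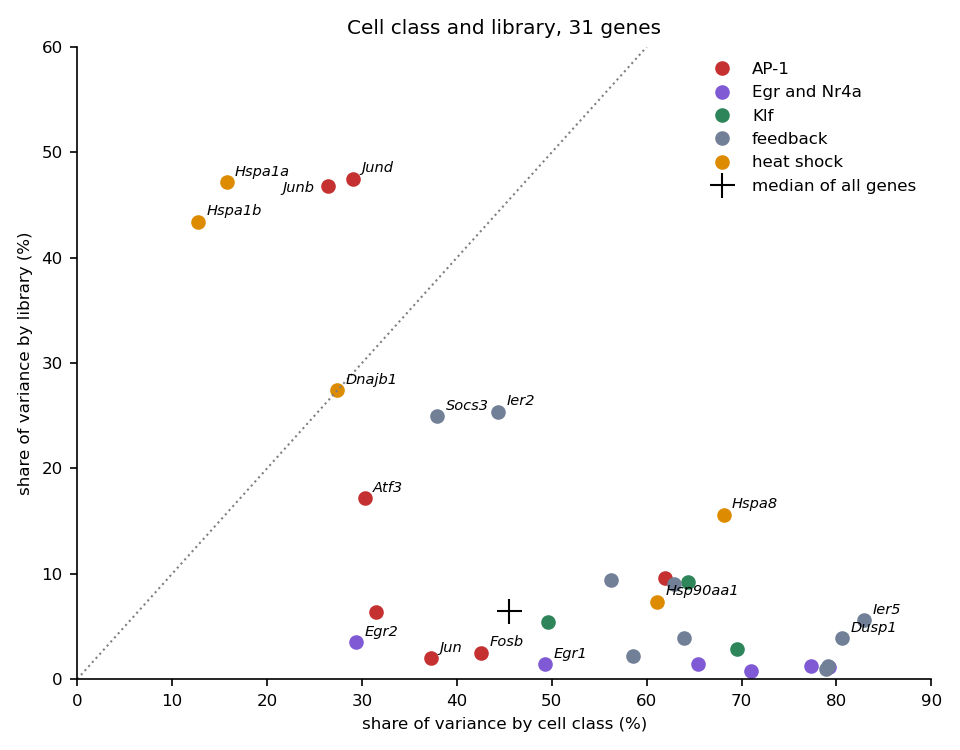
Share of variance by cell class (x axis, %) and by library (y axis, %) for each of the 31 members over 89 sums, with the median of all genes as a cross and a dotted line where the shares are equal. Hspa1a, Hspa1b, Junb and Jund lie above the line, and Ier5 lies farthest to the right. The T and B sums include cells that also passed another gate.

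Within 1 tag, where library and tag are constant, macrophages with more AP-1 molecules tended to hold more heat shock molecules, weakly. Across macrophages thinned to 2000 molecules, the correlation of log2(1 + sum) was a median of r = 0.30 over 18 tags (0.05 to 0.47), with medians of 0.19, 0.33 and 0.34 in libraries 1, 2 and 3. The AP-1 sum went more closely with the regulators (0.57, 0.32 to 0.69) and the Klf sum (0.36). Hspa1a and Hspa1b were the closest pair, at 0.69 (0.41 to 0.83), Fos and Jun were at 0.39, and Hspa1a and Fos at 0.28. These values describe cells that share a tag, a library and a depth, and weak correlations in counts this sparse are no finding.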

How the data were processed

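Single-cell RNA was measured in CD45-selected cells of infarcted mouse hearts, in 3 multiplexed libraries with 18 sample tags. The deposited values are counts of molecules per cell and gene, not normalized and corrected by the pipeline's recursive substitution error correction, per the file headers. The headers name the BD Rhapsody WTA Analysis Pipeline, version 2.0b1 for library 1 and 1.10 for libraries 2 and 3, with GRCm38. Intronic reads were kept in library 1, which raises counts of genes with introns there. The genes and lists were chosen with earlier results of these data known.

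Cells with at least 200 genes were kept and classed by the marker rule of the report, and counts were summed per tag and class where at least 20 cells were present. CPM are counts per 1000000 molecules of that sum. Class differences were fitted with edgeR 4.0.16 (R 4.3.3): quasi-likelihood test, TMM factors, filterByExpr, the tag as a block because both classes come from the same replicate, Benjamini-Hochberg adjustment over all genes tested and a threshold of 0.05. The scripts were tested on simulated data. P-values weigh the class difference within tags against how much it varied from tag to tag. Library differences were described without a test, for genes with a mean of at least 10 CPM, and fold values between libraries used CPM plus 10. Scrublet itself called 0, 1 and 1 cells in the 3 libraries and so did not work here; leaving out the 512 cells with the highest scores was an alternative. All 31 members could be named; of each other list, the 2 genes with the largest differences in a class comparison. In the library comparison, genes of the other lists were named after their values were seen, because their groups did not overlap. Other alternatives were DESeq2 1.42.0, other scaling and filters, each library alone or left out, thinned cells and cells of 2 gates left out. Total counts per tag limit the precision, and intervals cover counting error only. The values of a few other genes of the lists are not reported here.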

Additional observations from a re-analysis of the deposited data

Results flagged for a closer look

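Within each library, the macrophage level of each member was checked for a tag far from the others; 93 series were checked and 15 had one, where chance gives about 1 in 20. Tag 5 of library 2 stood high in 6 genes. Its levels were 1243 CPM for Hspa1a, 1419 CPM for Hspa1b, 1151 CPM for Hsp90aa1, 122 CPM for Dnajb1, 1317 CPM for Jund and 626 CPM for Klf4. The nearest other tag of that library stood at 463 CPM for Hspa1a and 445 CPM for Hspa1b.

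Tag 10 of library 1 stood apart in 5 genes, low in Jun at 329.9 CPM and high in Egr2 at 65.5 CPM, Egr3 at 7.85 CPM, Ier2 at 138 CPM and Ier3 at 592 CPM. In the same library, tag 12 was low in Nr4a3 at 56.6 CPM and tag 11 high in Btg2 at 233 CPM. Tag 7 of library 3, the tag with the lowest Fos, was high in Ier3 at 862 CPM and in Socs3 at 304 CPM.

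Maff differed in direction between libraries in the comparison of macrophages with monocytes. The median log2 difference was -0.39 in library 1, lower in macrophages of all its tags, and 0.19 in library 2, higher in both of its tags. The gap of -0.58 was not tested.

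The 4327 cells with no class, which enter no comparison, also held these transcripts. Their sums were 4815 CPM for the AP-1 genes, 1539.6 CPM for Egr and Nr4a, 1541 CPM for Klf, 5005 CPM for the regulators and 2768 CPM for heat shock, where a count of 0 would allow 0.042 CPM.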

How the results depend on the processing

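Of 165 called member differences, 2357 values under the alternatives gave the same direction and a call in 2094, the same direction without a call in 253 and the opposite direction in 10, of which 0 were called. The opposite values were, for macrophages against monocytes, Maff at 0.20 in library 2 alone and 0.13 without library 1, Nr4a1 at 0.17 in library 2 alone and Ier5 at 0.018 with thinned cells. Against neutrophils, Egr1 was at 0.42 in library 3 alone and 0.49 without library 1. In library 3 alone Nfkbia against DC was at -0.0031, and in library 2 alone Nr4a2 and Klf4 against B cells were at 0.0033 and -0.035. Dusp2 in T against B cells was at -0.0016 with thinned cells. The cause was not tested for any of these.

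Counts of members called moved by more than 1.5 times as follows. In macrophages against monocytes, 1 was higher and 2 lower in library 2 alone, and 8 were lower with thinned cells. In macrophages against DC, 10 were higher in library 3 alone. In macrophages against B cells, 9 were higher with at least 50 cells and 7 in library 2 alone. In neutrophils against monocytes, 8 were lower with no filter. In T against B cells, 3 higher and 2 lower with at least 50 cells, 0 and 3 in library 1 alone, 1 higher in library 2 alone, 0 and 4 in library 3 alone, and 3 higher without cells of 2 gates. Without the replicate block, that is without the tag as a block, 9 members were higher in macrophages than in B cells and 1 higher in T than in B cells; the other counts stayed within 1.5 times. Thinned to 1000 molecules, Hspa1a was held by 9.71%, 26.2% and 26.1% of macrophages in libraries 1, 2 and 3.

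With 1 library left out at a time, members higher and lower were 3 to 10 and 5 to 13 in macrophages against monocytes, 9 to 10 and 11 to 15 against neutrophils, 13 to 15 and 10 to 13 against DC, 15 to 17 and 12 against T cells, 11 to 12 and 11 against B cells, and 3 to 6 and 6 to 8 in T against B cells. Neutrophils against monocytes had 5, 0 and 1 tags in libraries 1, 2 and 3, so leaving out library 2 changed nothing and leaving out library 1 allowed no fit. With library 3 left out, only library 1 remained: 17 and 5 were called, but not Jun (0.27, edgeR adjusted p = 0.25). With a library left out, Maff against monocytes ranged from -0.58 to 0.13 and Egr1 against neutrophils from -0.98 to 0.49. Members apart in library 1 macrophages were 0 to 2 above and 7 below. The class share of variance was 36.5 to 46.1% for AP-1, 58.8 to 70.3% for Klf and 23.3 to 43.3% for heat shock, and the library share was 1.69 to 9.60%, 1.06 to 8.15% and 0.436 to 40.4%. For Egr and Nr4a they were 69.7 to 71.8% and 0.614 to 1.49%, and for the regulators 67.0 to 67.8% and 0.498 to 4.66%. Macrophages against monocytes in library 3 alone, macrophages against neutrophils in library 2 alone, and neutrophils against monocytes in libraries 2 and 3 alone and without library 1 could not be fitted, since too few tags held both classes. Depth limits the neutrophil values most.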
